A study of Mus musculus with 4 samples.

Results

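The genes described here are 35 markers of macrophages and osteoclasts, 30 of macrophages and 5 of osteoclasts (Ctsk, Acp5, Ocstamp, Dcstamp and Atp6v0d2), out of 55450 genes counted in cultures of mouse articular chondrocytes. They were taken by gene symbol from a list of known markers, and all 35 were found in the files.

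RNA was sequenced from articular chondrocytes that were freed from femoral heads with collagenase and grown in medium with fetal bovine serum. The mice were 3 weeks old, and each of the 4 conditions had 1 library. The wild-type culture came from C57BL/6 mice. The miR-26a KO culture came from C57BL/6 mice of the genotype miR-26a -/-. The mimic culture came from miR-26a -/- mice, with the strain written as C57BL6/J, and its cells were transfected with a double-stranded miR-26a mimic. The Cart-miR-23clus KO culture came from C57BL/6 mice with floxed miR-23a and miR-23b clusters, which hold miR-23, miR-27 and miR-24, and with Cre under the control of the chondrocyte collagen gene Col2a1. This deletion therefore follows cells with Col2a1 promoter activity, whereas the label of miR-26a KO names no Cre driver. The sources differ on the wild-type library: its label and the study's account of its results call it wild type, whereas the methods name floxed mice as the Control whose RNA was set against Cart-miR-23clus KO. Whether it carried floxed alleles is therefore uncertain. Whether the miR-26a KO culture received the control oligonucleotide is not given in the sources used here, so the mimic comparison cannot separate the mimic from the transfection. The protocol reads poly(A) RNA, so the mature miRNAs themselves were not measured, and how many mice were pooled per culture is not given.

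Macrophages are phagocytes of the innate immune system that derive from embryonic or bone marrow precursors. They need the transcription factor PU.1 and signals through the CSF1 receptor, and they clear debris with the help of complement, Fc receptors and lysosomal enzymes. Osteoclasts arise by fusion of cells of the same lineage under CSF1 and RANKL, and they resorb bone and calcified cartilage with acid and cathepsin K. Both cell types live in the bone, marrow and synovium around growing cartilage.

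The cultures had the RNA of chondrocytes. All 10 chondrocyte markers passed a filter of 20 reads over the 4 libraries, and together they took 35211 CPM (reads scaled to the same total in each library) in wild type and between 26611 and 27675 in the other libraries. The 30 macrophage genes took between 1863 and 3116 CPM. Osteoblast markers stood at 34244 CPM in wild type, 15921 in miR-26a KO, 18384 with the mimic and 6977 in Cart-miR-23clus KO, and their part in the results that follow was not tested. Fibroblast markers lay between 2252 and 3515 CPM. The libraries held from 1336496 to 1505805 reads on genes, and a gene with 0 reads in a library may still have stood at up to 2.00 to 2.26 CPM.

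Sequences of the deleted miRNAs and of some matches to their seeds in the listed genes are shown first. The mimic's sense strand is identical to mature mmu-miR-26a-5p as RefSeq gives it on GRCm38.p6, from Mir26a-1 (chr9:119031811-119031832, plus strand) and Mir26a-2 (chr10:126995543-126995564, plus strand). In the miRNAs the seed, bases 2 to 8, is in capitals. Matches in other listed genes are named further on but not printed. Below the miRNAs are 30 bases of the annotated 3′ UTR of Cybb, Msr1 and Atp6v0d2, with the 7 bases that pair with a seed in capitals.
mmu-miR-26a-5p: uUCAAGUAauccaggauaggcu
mmu-miR-23a-3p: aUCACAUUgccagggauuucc
mmu-miR-27a-3p: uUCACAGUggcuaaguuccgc
mmu-miR-24-3p: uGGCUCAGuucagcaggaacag
Cybb, match to miR-26a: gcctccattgcTACTTGAtatgtatcacat
Msr1, match to miR-24: caggacagaacCTGAGCCcatttctgtcga
Atp6v0d2, match to miR-23a: ggcacagaaatAATGTGAactaattttact

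The miR-26a match TACTTGA occurred in the longest annotated 3′ UTR of 1 of 30 macrophage genes, Cybb (chrX:9436618-9436624, minus strand), and in that of 0 of 5 osteoclast genes, against 12.3% of 10361 genes. These 10361 had at least 20 reads and an annotated 3′ UTR of at least 50 bases, whereas the listed genes were searched whatever their reads. Matches to miR-23a (AATGTGA) were in Ptprc, Cd53 and Mrc1 among macrophage genes and in Atp6v0d2 (chr4:19877202-19877208, minus strand) among osteoclast genes, against 17.5% of the 10361. Those to miR-24 (CTGAGCC) were in Csf1r, Msr1 (chr8:39604211-39604217, minus strand) and Ocstamp, against 19.8% of the 10361. The miR-27a match (ACTGTGA), whose seed miR-27b shares, was in Dcstamp alone, against 18.1% of the 10361. Ptprc, Cd53, Ocstamp and Dcstamp did not reach 20 reads. Of the genes whose match is printed, Msr1 and Atp6v0d2 were higher in Cart-miR-23clus KO and passed the filter only through it. Mrc1, with matches to miR-23a at bases 713 and 726 of its 3′ UTR, was at 0.712 of wild type there (0.302 to 1.61). A match describes these letters and is not a measured target site.

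In the miR-26a KO library most macrophage genes had far less RNA than the wild-type library, while 2 that chondrocytes and other connective-tissue cells also make were higher. Of the 25 macrophage genes that passed the filter, 16 were below 0.5-fold on the log2(TPM + 0.5) scale and 0 above 2-fold, where 4.21% and 4.44% of all 11049 genes lay. The counting interval of the ratio lay below 1 for 14 genes and above 1 for 2, against 7.80% and 10.2% of all genes. Their median log2 ratio was -1.21, beside 0.03 over all genes. Ms4a7, Msr1 and Aif1 reached 20 reads only through their highest library, and without such genes 13 of 22 were below 0.5-fold, against 2.89% of all genes. Macrophage-rich transcripts such as Lyz2, C1qa, Tyrobp, Fcer1g, Ctss and Mpeg1 stood between 0.0628 and 0.342 of their wild-type TPM, and Lgals3 and Gpnmb at 1.90 and 1.62 times it. Csf1r, Cybb, Cd84 and Fcgr3 were less lowered, at 0.618, 0.610, 0.610 and 0.769, and the intervals of Cybb, Cd84 and Fcgr3 held 1. In bulk RNA, fewer macrophages and less of these RNAs per macrophage cannot be told apart.

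With the miR-26a mimic, macrophage genes were higher than in the untransfected or control-transfected miR-26a KO library, though 18 of the 25 that passed the filter stayed under their wild-type level. The share of all genes under wild type in the mimic library was not computed. The 18 include Ms4a7 and Aif1, which passed the filter only through wild type, so this count is a description. Of the same 25 genes, 10 were above 2-fold and 0 below 0.5-fold, against 2.58% and 2.31% of all genes. Intervals lay above 1 for 12 and below 1 for 0, against 4.74% and 4.62%. The median log2 ratio was 0.76, beside -0.01 over all genes. Without the same 3 genes, 9 of 22 were above 2-fold, against 1.67%. This comparison shares the miR-26a KO library with the previous one, so the ratios of each gene in them are not independent.

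In Cart-miR-23clus KO 17 of the 25 macrophage genes were higher than in wild type and 8 lower, where 48.8% and 51.2% of all genes were. Gpnmb and Lgals3, which other cartilage cells also express, were above 2-fold. Csf1r, Adgre1, Fcgr3, Msr1 and the oxidase genes Cybb and Cyba were higher too, the complement genes and Lyz2 were close to wild type, and Mpeg1 was lower. Of the 25 genes, 5 were above 2-fold and 0 below 0.5-fold, against 5.42% and 4.91% of all genes, with intervals above 1 for 8 and below 1 for 1, against 10.9% and 11.1%. Msr1, 1 of the 5, reached 20 reads only through Cart-miR-23clus KO, and without the genes that passed through 1 library 4 of 22 were above 2-fold, against 4.11% of all genes. The median log2 ratio was 0.38, beside -0.01 over all genes. Wild type serves both this comparison and that of miR-26a KO.

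With 1 library per condition there is no measure of the spread between cultures, so no difference between conditions was tested. All intervals are exact 95% intervals of the ratio from the reads. They cover counting error only, PCR copies included as if they were separate molecules, and compare these libraries rather than the genotypes. The listed genes share cells and libraries and are not replicates of a condition.

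**Figure D1:**
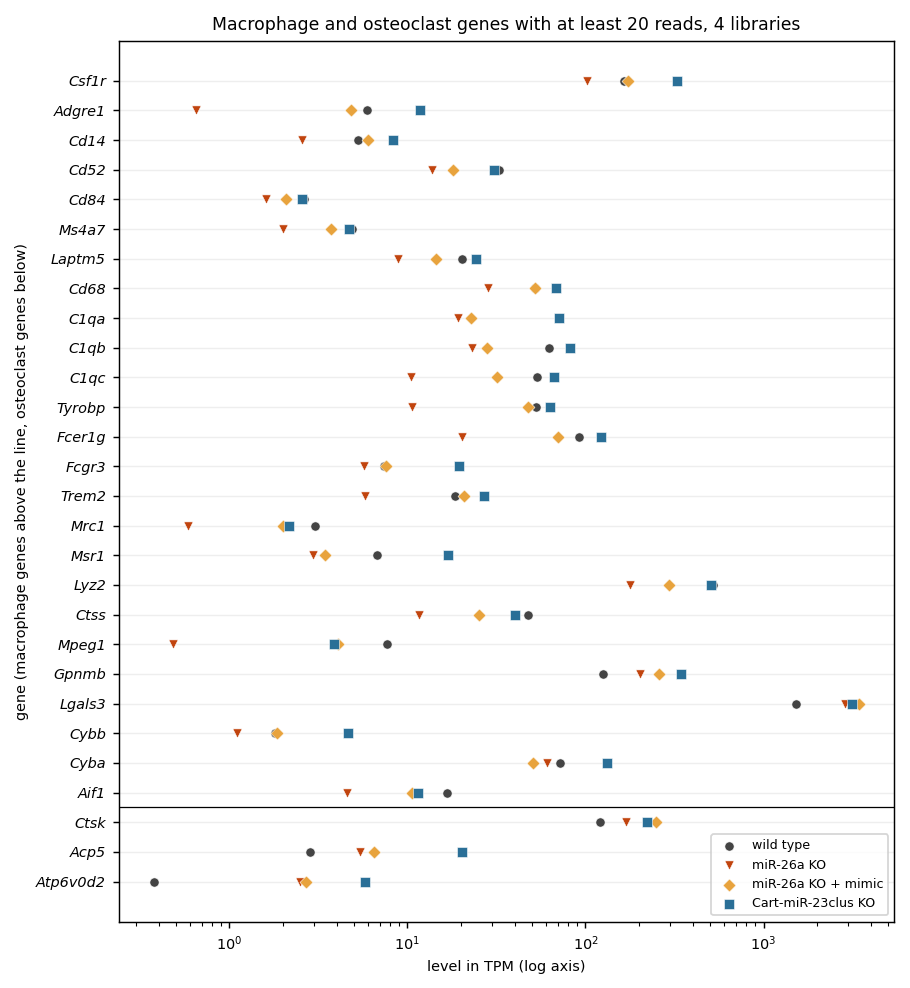
Level in TPM (log axis) of the 25 macrophage and 3 osteoclast genes with at least 20 reads, 1 point per library. The miR-26a KO points lie leftmost for 22 of the 25 macrophage genes, and the Cart-miR-23clus KO points lie rightmost for 16. The 16 include Msr1, which reached 20 reads only through that library, and the same shares over all genes were not computed.

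The lineage factor Spi1, which encodes PU.1, was near the limit of detection with 3 reads in wild type, 0 in miR-26a KO, 2 with the mimic and 4 in Cart-miR-23clus KO. Csf1r, the receptor through which CSF1 and IL-34 keep macrophages alive, had 80, 45, 82 and 144 reads in the same order, or 165, 102, 173 and 326 TPM. It was the most abundant of the narrowly expressed genes after Lyz2 in wild type on the TPM scale. The ratio of Csf1r to wild type was 0.618 (0.419 to 0.901) in miR-26a KO and 1.98 (1.50 to 2.64) in Cart-miR-23clus KO, and mimic to miR-26a KO was 1.70 (1.17 to 2.51). Exons of Csf1r overlap Hmgxb3 on the other strand, which had between 22 and 43 reads and was lowest where Csf1r was highest. Whether the counting used strand is not given in the sources used here.

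Among surface and membrane markers, Adgre1, which encodes the macrophage antigen F4/80, had the largest differences of those that passed the filter. It had 20 reads in wild type, 2 in miR-26a KO, 16 with the mimic and 36 in Cart-miR-23clus KO (5.91, 0.649, 4.85 and 11.7 TPM). Its level in miR-26a KO was 0.110 of wild type (0.0124 to 0.452), and with the mimic it was 7.47 times miR-26a KO (1.76 to 67.0). In Cart-miR-23clus KO it was 1.98 times wild type (1.12 to 3.61), next to the same ratio for Csf1r.

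Cd68, a glycoprotein of lysosomes used as a macrophage stain, had 67 reads in wild type, 33 in miR-26a KO, 65 with the mimic and 80 in Cart-miR-23clus KO (52.1, 28.2, 51.9 and 68.5 TPM). The mimic and wild-type levels of Cd68 were thus almost equal, and miR-26a KO stood at 0.541 of wild type (0.345 to 0.832). Laptm5, a lysosomal membrane protein of blood cells, had 55, 22, 38 and 60 reads (20.2, 8.89, 14.4 and 24.3 TPM), with a miR-26a KO ratio of 0.439 (0.255 to 0.732). The lipopolysaccharide co-receptor Cd14 had 9, 4, 10 and 13 reads (5.25, 2.56, 5.99 and 8.35 TPM). For both, miR-26a KO was again the lowest library and Cart-miR-23clus KO the highest.

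The remaining surface markers were scarce, and no counting interval of theirs left out 1 in any comparison. Cd52, a small glycoprotein of leukocytes, had 13, 5, 7 and 11 reads in the order wild type, miR-26a KO, mimic and Cart-miR-23clus KO (32.7, 13.8, 18.1 and 30.5 TPM). Cd84, an adhesion receptor of leukocytes, had 9, 5, 7 and 8 reads (2.62, 1.60, 2.09 and 2.56 TPM). Ms4a7, a membrane protein of macrophages, had 8, 3, 6 and 7 reads (4.86, 2.00, 3.74 and 4.68 TPM). All 3 were lowest in miR-26a KO and highest in wild type. The pan-leukocyte antigen CD45, from Ptprc, had 3, 0, 3 and 5 reads, and the tetraspanin Cd53 had 5, 0, 4 and 9, so both were undetected only in miR-26a KO. The 9 surface genes together held 189, 74, 156 and 229 reads, which put miR-26a KO at 0.430 of wild type (0.324 to 0.565).

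C1qa, C1qb and C1qc encode the chains of complement C1q, which macrophages secrete, and lie side by side on the minus strand of chromosome 4 (GRCm38, chr4:136895917-136898803, chr4:136880129-136886187 and chr4:136889804-136893065). C1qa had 77 reads in wild type, 19 in miR-26a KO, 24 with the mimic and 70 in Cart-miR-23clus KO (70.9, 19.2, 22.7 and 70.9 TPM). C1qb had 71, 24, 31 and 84 reads (62.5, 23.2, 28.0 and 81.4 TPM), and C1qc had 67, 12, 39 and 76 reads (53.3, 10.5, 31.8 and 66.6 TPM). Both miR-26a KO cultures, with and without mimic, stood well below the other cultures for each of the 3 genes.

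The ratios of miR-26a KO to wild type were 0.271 for C1qa (0.155 to 0.452), 0.371 for C1qb (0.223 to 0.597) and 0.197 for C1qc (0.0968 to 0.367). The mimic library differed among the chains. C1qc was 3.04 times miR-26a KO (1.56 to 6.37), whereas the intervals of C1qa (0.620 to 2.28, ratio 1.18) and C1qb (0.686 to 2.15, ratio 1.21) held 1. Their summed reads were 0.281 of wild type in miR-26a KO (0.205 to 0.379), 1.60 times miR-26a KO with the mimic (1.13 to 2.27) and 1.18 times wild type in Cart-miR-23clus KO (0.974 to 1.43).

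Tyrobp and Fcer1g encode adaptors that carry an immunoreceptor activation motif (ITAM) and signal for Trem2 and Fc receptors. Tyrobp had 33 reads in wild type, 6 in miR-26a KO, 29 with the mimic and 36 in Cart-miR-23clus KO (52.9, 10.6, 47.7 and 63.5 TPM). Fcer1g had 65, 13, 48 and 78 reads (92.3, 20.3, 69.9 and 122 TPM). Trem2, a lipid receptor that pairs with the Tyrobp product, had 21, 6, 23 and 28 reads (18.5, 5.80, 20.8 and 27.1 TPM). The 3 genes shared 1 pattern, low in miR-26a KO and closer together in the other cultures.

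In miR-26a KO their ratios to wild type were 0.200 for Tyrobp (0.0684 to 0.483), 0.220 for Fcer1g (0.111 to 0.402) and 0.314 for Trem2 (0.104 to 0.804). With the mimic they were 4.52 (1.84 to 13.3), 3.45 (1.84 to 6.94) and 3.58 (1.42 to 10.8) times miR-26a KO. Fcgr3, an activating Fc receptor, differed from them, with 10, 7, 10 and 24 reads (7.37, 5.67, 7.57 and 19.5 TPM) and its one interval away from 1 in Cart-miR-23clus KO, at 2.64 times wild type (1.22 to 6.19). The inhibitory receptor Fcgr2b had 1 read in each library. Summed over the 5 genes, miR-26a KO stood at 0.279 of wild type (0.184 to 0.411), the mimic library at 3.14 times miR-26a KO (2.11 to 4.79) and Cart-miR-23clus KO at 1.41 times wild type (1.12 to 1.79).

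Of the endocytic receptors, the mannose receptor gene Mrc1 had 17 reads in wild type, 3 in miR-26a KO, 11 with the mimic and 11 in Cart-miR-23clus KO (3.03, 0.587, 2.01 and 2.16 TPM), a miR-26a KO ratio of 0.194 (0.0364 to 0.670), and its interval in Cart-miR-23clus KO held 1 (0.302 to 1.61). The scavenger receptor gene Msr1 had 10, 4, 5 and 23 reads (6.72, 2.95, 3.45 and 17.0 TPM), and it was 2.53 times wild type in Cart-miR-23clus KO (1.16 to 5.96), the library through which alone it reached the filter, with 19 reads in the others together.

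Lyz2, the lysozyme gene of myeloid cells (chr10:117277331-117282321, minus strand), gave the most precise reading of a narrowly expressed macrophage gene. It had 712 reads in wild type, 222 in miR-26a KO, 396 with the mimic and 633 in Cart-miR-23clus KO (518, 177, 296 and 507 TPM). The miR-26a KO level was 0.342 of wild type (0.293 to 0.399), and the mimic level was 1.67 times miR-26a KO (1.41 to 1.97). In Cart-miR-23clus KO the ratio to wild type was 0.979 (0.878 to 1.09).

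Ctss, the lysosomal protease of antigen-presenting cells, had 67, 15, 35 and 52 reads (47.3, 11.6, 25.4 and 40.4 TPM), with ratios of 0.246 in miR-26a KO (0.130 to 0.435) and 2.18 for the mimic (1.16 to 4.30). Mpeg1, which encodes the pore-forming perforin-2, had 35, 2, 18 and 16 reads (7.73, 0.485, 4.08 and 3.89 TPM). It had the lowest ratio in miR-26a KO of the genes that passed the filter, 0.0628 (0.00731 to 0.244), and the highest with the mimic, 8.41 (2.01 to 74.7). It was also the only macrophage gene whose interval lay below 1 in Cart-miR-23clus KO, at 0.503 of wild type (0.260 to 0.934).

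Lgals3 and Gpnmb went the other way in miR-26a KO. Lgals3, the galectin-3 gene, which chondrocytes also express, had 1024 reads in wild type, 1771 in miR-26a KO, 2265 with the mimic and 1922 in Cart-miR-23clus KO (1517, 2882, 3444 and 3135 TPM). Gpnmb, a glycoprotein of macrophages, osteoclasts and osteoblasts, had 240, 354, 484 and 597 reads (125, 203, 259 and 343 TPM). For both genes wild type was the lowest library.

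The ratios to wild type were 1.90 (1.76 to 2.05) for Lgals3 and 1.62 (1.37 to 1.92) for Gpnmb in miR-26a KO, and 2.07 (1.91 to 2.23) and 2.74 (2.35 to 3.19) in Cart-miR-23clus KO. With the mimic they were 1.19 (1.12 to 1.27) and 1.28 (1.11 to 1.47) times miR-26a KO. Lgals3 and Gpnmb made up 45.3% of the reads of the 30 macrophage genes in wild type, 81.0% in miR-26a KO, 74.2% with the mimic and 60.9% in Cart-miR-23clus KO.

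Cybb and Cyba encode the membrane subunits of the phagocyte NADPH oxidase. Cybb had 9, 5, 9 and 21 reads in wild type, miR-26a KO, mimic and Cart-miR-23clus KO (1.81, 1.11, 1.86 and 4.66 TPM), and Cyba, which other cells express too, had 48, 37, 33 and 80 reads (72.0, 61.0, 50.8 and 132 TPM). Both were highest in Cart-miR-23clus KO, at 2.57 (1.13 to 6.37) and 1.84 (1.27 to 2.68) times wild type. A difference of miR-26a KO was not detectable at this depth in either, with ratios of 0.610 (0.161 to 2.03) and 0.847 (0.536 to 1.33), and with the mimic Cybb, the macrophage gene with a miR-26a seed match, was 1.68 times miR-26a KO (0.506 to 6.39). The actin-binding genes were scarce: Aif1 (IBA1) had 8, 2, 5 and 5 reads (16.6, 4.55, 10.6 and 11.4 TPM), and Coro1a had 5, 0, 0 and 4. Coro1a overlaps Bola2 on the other strand, which held between 115 and 140 reads.

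**Figure D2:**
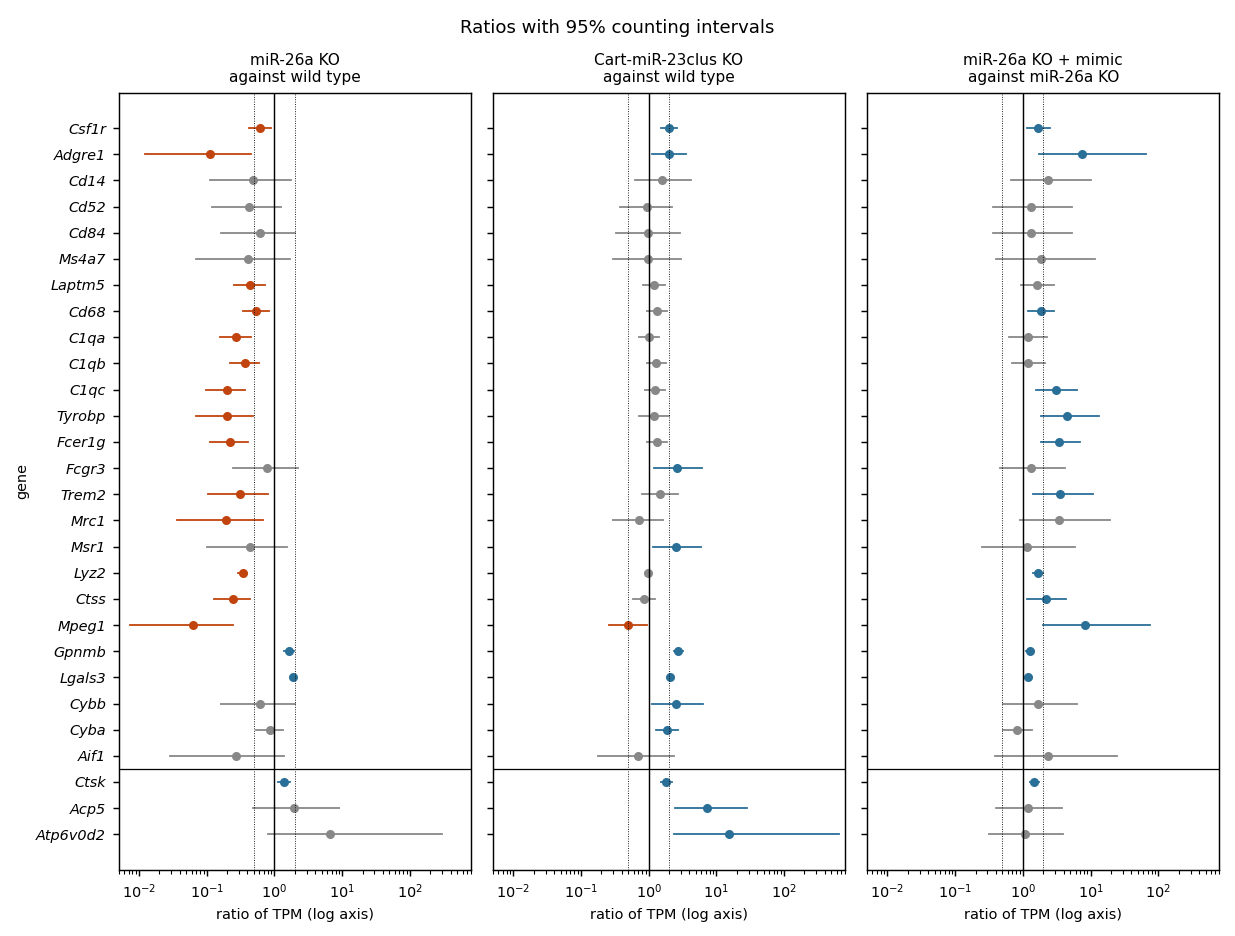
Ratio of TPM (log axis) for each gene in the 3 comparisons, with exact 95% counting intervals, red where the interval lies below 1 and blue where it lies above. Dotted lines mark 0.5-fold and 2-fold. In miR-26a KO against wild type 14 macrophage intervals lie below 1 and 2 above, those of Gpnmb and Lgals3.

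Because Lgals3, Gpnmb, Cyba, Cd14, Cd68 and Mrc1 are also expressed by other cells of cartilage or its surroundings, the 24 narrower genes were summed apart. They held 1387 reads in wild type, 420 in miR-26a KO, 838 with the mimic and 1435 in Cart-miR-23clus KO, or 926, 308, 578 and 1081 CPM. Ratios of sums were scaled between libraries as the TPM values are, and so can differ slightly from ratios of CPM. The miR-26a KO sum was 0.333 of wild type (0.297 to 0.371), and the mimic sum was 1.86 times miR-26a KO (1.66 to 2.10). In Cart-miR-23clus KO the sum was 1.14 times wild type (1.06 to 1.23). Over all 30 genes the ratios of the sums were instead 1.03 (0.977 to 1.09), 1.32 (1.26 to 1.39) and 1.63 (1.55 to 1.71). In miR-26a KO the interval over all 30 genes thus held 1, with Lgals3 and Gpnmb higher and the other 4 shared genes, Cd68, Cd14, Mrc1 and Cyba, at ratios below 1.

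Within the 19 narrower genes that passed the filter, all 19 had a ratio below 1 in miR-26a KO and all 19 had a ratio above 1 with the mimic, against 47.5% and 49.2% of all genes. The 19 include Ms4a7 and Aif1, which passed only through wild type, and Msr1, which passed only through Cart-miR-23clus KO, so their direction against those libraries is a description. Over the 19 genes the median log2 ratios were -1.54 and 0.76, and in Cart-miR-23clus KO the median was 0.26 with 12 genes higher and 7 lower, against 48.8% and 51.2% of all genes.

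**Figure D3:**
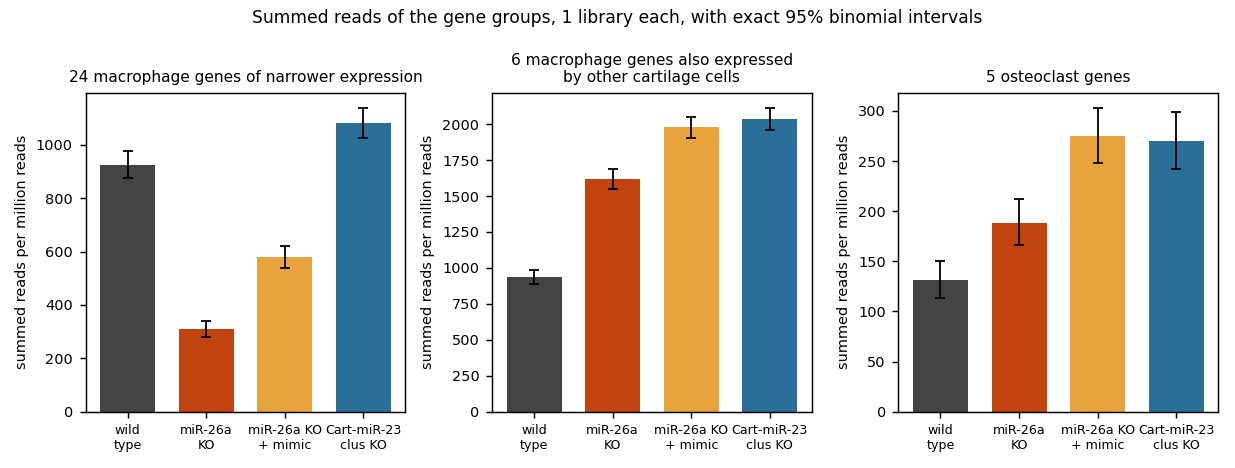
Summed CPM of the 24 narrower macrophage genes, the 6 macrophage genes that other cartilage cells also express and the 5 osteoclast genes, 1 bar per library with exact 95% binomial intervals. The narrower genes are lowest in miR-26a KO (308) and highest in Cart-miR-23clus KO (1081), whereas wild type is lowest for the other groups (938 and 131).

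The promoters were searched for GAGGAA, the core that PU.1 binds, in the window from 250 bases before to 50 bases after each RefSeq start, on both strands. Windows were matched for 22 of 30 macrophage genes, and 14 of them (63.6%) held GAGGAA, against 31.3% of 27025 genes. The match was in C1qb, C1qc, Trem2, Laptm5 and Ctss among others, and was not found in Lyz2, Fcer1g, Fcgr2b, Mpeg1, Lgals3, Gpnmb, Cyba or Coro1a. Of 2 osteoclast genes with a window, Ctsk held it. The letters TCACGTG or TCATGTG, which MITF and its relatives bind, were in 4 of 22 macrophage genes (18.2%: C1qb, C1qc, Ctss and Ms4a7) and in Acp5, against 8.40% of all genes. Shown are 30 bases around GAGGAA, in capitals, read on the strand that carries it, from genes that were low in miR-26a KO and, last, from Ctsk, which was not.
C1qb, chr4:136886213-136886242, minus: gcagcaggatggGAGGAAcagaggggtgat
C1qc, chr4:136893090-136893119, plus: gtgtgccaaaatGAGGAAgtgtctgccgtc
Trem2, chr17:48346349-48346378, minus: gcgtgagggaggGAGGAAggaaaggaggct
Laptm5, chr4:130913266-130913295, minus: cagaacaaaaaaGAGGAAgccacaggctgc
Ctss, chr3:95526610-95526639, plus: gacacagggttgGAGGAAaactttgtcctg
Ctsk, chr3:95499140-95499169, minus: ggaggggttaggGAGGAAggacacacattt

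The match began 30 bases before the start in C1qb, 40 in Trem2, 38 in Laptm5, 193 in C1qc, 164 in Ctss and 58 in Ctsk, where it was the nearer of 2 matches. Binding was not measured, and the absence of these letters from a window says nothing of the factor.

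The 3 osteoclast genes that passed the filter, Ctsk, Acp5 and Atp6v0d2, were lowest in wild type. Ctsk, the collagen-degrading cathepsin K, which fibroblasts and chondrocytes can also make (chr3:95499256-95509362, plus strand), had 191 reads in wild type, 241 in miR-26a KO, 382 with the mimic and 317 in Cart-miR-23clus KO (121, 168, 248 and 221 TPM). Its ratios were 1.39 (1.14 to 1.68) for miR-26a KO and 1.83 (1.52 to 2.20) for Cart-miR-23clus KO against wild type, and 1.48 (1.26 to 1.75) for the mimic against miR-26a KO. The mimic culture thus held the highest Ctsk level, where the macrophage genes stayed mostly under wild type.

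Acp5, the tartrate-resistant acid phosphatase (TRAP) by which osteoclasts are stained, had 4, 7, 9 and 26 reads in wild type, miR-26a KO, mimic and Cart-miR-23clus KO (2.82, 5.43, 6.52 and 20.2 TPM). Atp6v0d2, a proton pump subunit needed for fusion of osteoclast precursors, had 1, 6, 7 and 14 reads (0.377, 2.48, 2.71 and 5.81 TPM). For both genes Cart-miR-23clus KO was the highest library, at 7.16 (2.48 to 28.2) and 15.4 (2.35 to 652) times wild type. In miR-26a KO the intervals of Acp5 (0.489 to 8.95, ratio 1.92) and Atp6v0d2 (0.799 to 303, ratio 6.59) held 1, and the mimic differed from miR-26a KO by 1.20 (0.398 to 3.80) and 1.09 (0.314 to 3.93).

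The fusion receptors Ocstamp and Dcstamp, which mark multinucleated osteoclasts, were almost undetected, with 2 reads of Ocstamp in miR-26a KO and 1 of Dcstamp in Cart-miR-23clus KO as their only reads. Of the 3 osteoclast genes that passed the filter, 1 was above 2-fold in miR-26a KO, 2 in Cart-miR-23clus KO and 0 with the mimic, against 4.44%, 5.42% and 2.58% of all genes, and none lay below 0.5-fold. Intervals lay above 1 for 1, 3 and 1 of them, against 10.2%, 10.9% and 4.74%. Atp6v0d2 reached 20 reads only through Cart-miR-23clus KO, its highest library, with 14 reads in the others together, so its place in these counts and medians is a description. Without it 0 of 2 genes were above 2-fold in miR-26a KO and 1 of 2, Acp5, in Cart-miR-23clus KO, against 3.54% and 4.11% of all genes under the same condition. Over all 3 genes the median log2 ratios were 0.83, 2.64 and 0.24, beside 0.03, -0.01 and -0.01 over all genes. Summed over the 5 genes the ratios were 1.43 (1.19 to 1.74), 2.01 (1.68 to 2.41) and 1.45 (1.24 to 1.71), of which Ctsk supplied most reads. Without Ctsk they were 3.29 (1.14 to 11.6), 9.03 (3.57 to 29.3) and 0.997 (0.461 to 2.16). These ratios rest on few reads, in wild type 4 of Acp5 and 1 of Atp6v0d2. In Cart-miR-23clus KO Acp5 had 26 reads and Atp6v0d2, which passed the filter only through that library, had 14.

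Further markers of the lineage were read from a second list. Of 30 further macrophage genes, 11 passed the filter, and in miR-26a KO 4 of these were below 0.5-fold, 0 above 2-fold and all 11 lower, with a median of -0.89, against 4.21% and 4.44% of all genes past those limits and 47.5% lower. Folr2 and Nckap1l reached 20 reads only through Cart-miR-23clus KO, and without them 3 of 9 were below 0.5-fold, against 2.89%. Apoe, the apolipoprotein that macrophages secrete in quantity, had 495, 138, 256 and 541 reads (337, 103, 179 and 405 TPM), a miR-26a KO ratio of 0.306 (0.252 to 0.370) and a mimic ratio of 1.73 (1.40 to 2.15). Lcp1, the leukocyte plastin, had 62, 26, 34 and 76 reads, at 0.461 of wild type in miR-26a KO (0.280 to 0.739). Plek, a protein kinase C substrate of blood cells, had 18, 2, 9 and 9 reads, at 0.122 of wild type (0.0137 to 0.510). Ifi30, a lysosomal thiol reductase, was level across the libraries, with 273, 244, 305 and 265 reads.

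In Cart-miR-23clus KO the further macrophage genes had a median of 0.43 and 10 of 11 were higher, against 48.8% of all genes, with 1 above 2-fold and 0 below 0.5-fold, against 5.42% and 4.91% of all genes. The 1 gene was Folr2, so without those that passed through that library alone 0 of 9 were above 2-fold, against 4.11% of all genes. With the mimic the median was 0.46, with 2 above 2-fold and 1 below 0.5-fold, against 2.58% and 2.31%, and without Folr2 and Nckap1l it was 0.33, with 1 of 9 above 2-fold and 1 below 0.5-fold, against 1.67% and 1.29%. Summed, the list stood at 0.548 of wild type in miR-26a KO (0.494 to 0.607), 1.22 times wild type in Cart-miR-23clus KO (1.12 to 1.32) and 1.41 times miR-26a KO with the mimic (1.26 to 1.57). Cd163, Timd4, Vsig4, Ccr2, Cd86 and Lilrb4a had 0 reads in every library.

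Other blood cells were hardly present. The 10 neutrophil markers summed to between 0 and 2 reads per library, the T cell markers to between 1 and 3 (all Lck, with Cd3e, Cd3d and Cd3g at 0), and B cell and mast cell markers to 0 or 1. Erythroid markers had 0 reads, and the endothelial markers between 0 and 4. Among dendritic cell markers, Zbtb46 had 27, 14, 14 and 12 reads while Flt3, Xcr1, Ccr7 and Siglech had 0. Antigen presentation genes had 38 reads in wild type, 22 in miR-26a KO, 11 with the mimic and 20 in Cart-miR-23clus KO, mostly H2-Ab1 (35, 14, 10 and 11). The mimic sum of that group was 0.467 of miR-26a KO (0.205 to 1.01), so it was not raised with the macrophage genes.

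Of 18 further osteoclast genes, 11 passed the filter. In miR-26a KO 1 was above 2-fold and 0 below 0.5-fold (median 0.16), in Cart-miR-23clus KO 2 and 1 (median 0.34), and with the mimic 0 and 0 (median 0.04). All genes lay past these limits in 4.44% and 4.21%, 5.42% and 4.91%, and 2.58% and 2.31% of cases. In miR-26a KO 9 of the 11 were higher and 2 lower, as in Cart-miR-23clus KO, where 52.5% and 48.8% of all genes were higher. Intervals lay above 1 for 1 and below 1 for 0 in miR-26a KO, and for 5 and 1 in Cart-miR-23clus KO, against 10.2% and 7.80%, and 10.9% and 11.1%. The ratios of the sums were 1.17 (1.04 to 1.33), 1.39 (1.23 to 1.56) and, with the mimic, 1.06 (0.946 to 1.20). Mitf, a transcription factor of osteoclasts and other lineages, had 19, 30, 33 and 42 reads and was 2.43 times wild type in Cart-miR-23clus KO (1.38 to 4.43). Fos, an AP-1 factor that osteoclasts require but that most cells induce under stress, had 28, 53, 45 and 79 reads, at 2.08 (1.29 to 3.41) and 3.11 (2.00 to 4.97) times wild type in miR-26a KO and Cart-miR-23clus KO. The kinase gene Src was lower in Cart-miR-23clus KO, at 0.400 of wild type (0.154 to 0.934). The proton pump gene Atp6v1c1 and the chloride channel gene Clcn7, both widely expressed, were level, with 94 to 99 and 81 to 87 reads. The calcitonin receptor gene Calcr and Siglec15 had 0 reads in every library, and Oscar, Mmp9 and Car2 had at most 3 in any.

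Lysosomal genes are expressed by all cells. None of the 16 genes passed 2-fold in either direction in any comparison, where between 2.31% and 5.42% of all genes did in each direction, so a count of 0 is near the background. The medians were 0.15 in miR-26a KO, 0.30 in Cart-miR-23clus KO and 0.04 with the mimic. The protease gene Ctsd had 5877, 5083, 5540 and 6100 reads and the membrane protein gene Lamp1 had 1735, 1686, 1831 and 1935. Intervals lay above 1 for 6 of 16 genes in miR-26a KO and for 10 in Cart-miR-23clus KO, against 10.2% and 10.9% of all genes, and for 2 with the mimic, against 4.74%. They lay below 1 for 1 gene in miR-26a KO and 1 in Cart-miR-23clus KO, against 7.80% and 11.1%, and for 0 with the mimic, against 4.62%.

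Factors that act on these cells, which stromal cells make, were also read. Csf1, the growth factor for the CSF1 receptor, had 312 reads in wild type, 448 in miR-26a KO, 444 with the mimic and 556 in Cart-miR-23clus KO (97.7, 154, 143 and 192 TPM). It was 1.58 times wild type in miR-26a KO (1.36 to 1.83), where Csf1r was 0.618 of it, and 1.96 times in Cart-miR-23clus KO (1.70 to 2.26), where Csf1r was 1.98 times. Il34, the second ligand of that receptor, had 18, 31, 50 and 24 reads. Both ligands were lowest in wild type, though for Il34 in Cart-miR-23clus KO the interval of the ratio, 1.47, held 1 (0.764 to 2.87).

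Tnfrsf11b, the osteoprotegerin gene, whose product blocks RANKL, had 162, 309, 282 and 231 reads (55.0, 115, 98.3 and 86.4 TPM) and was 2.09 times wild type in miR-26a KO (1.73 to 2.55) and 1.57 times in Cart-miR-23clus KO (1.28 to 1.93). The RANKL gene Tnfsf11 had 0 reads in every library. The monocyte attractants Ccl2 (2, 3, 6 and 13 reads) and Ccl7 (6, 11, 14 and 24 reads) were highest in Cart-miR-23clus KO, at 7.16 (1.62 to 65.3) and 4.40 (1.75 to 13.2) times wild type. Cxcl12, a chemokine for leukocytes, had 765, 428, 531 and 5045 reads and was 7.26 times wild type in Cart-miR-23clus KO (6.73 to 7.84). In miR-26a KO it was lower than wild type, at 239.6 against 389.9 TPM. Intervals in miR-26a KO lay below 1 for 1 gene of this list, Cxcl12, and above 1 for 3, against 7.80% and 10.2% of all genes. Of the 7 genes in this list that passed the filter, 3 were above 2-fold in Cart-miR-23clus KO (median 0.97), 1 in miR-26a KO (median 0.65) and 0 with the mimic (median 0.24), against 5.42%, 4.44% and 2.58% of all genes, and none lay below 0.5-fold. Ccl2, 1 of the 3, reached 20 reads only through Cart-miR-23clus KO. Without it 2 of 6 were above 2-fold in that library (median 0.81), against 4.11% of all genes.

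**Figure D4:**
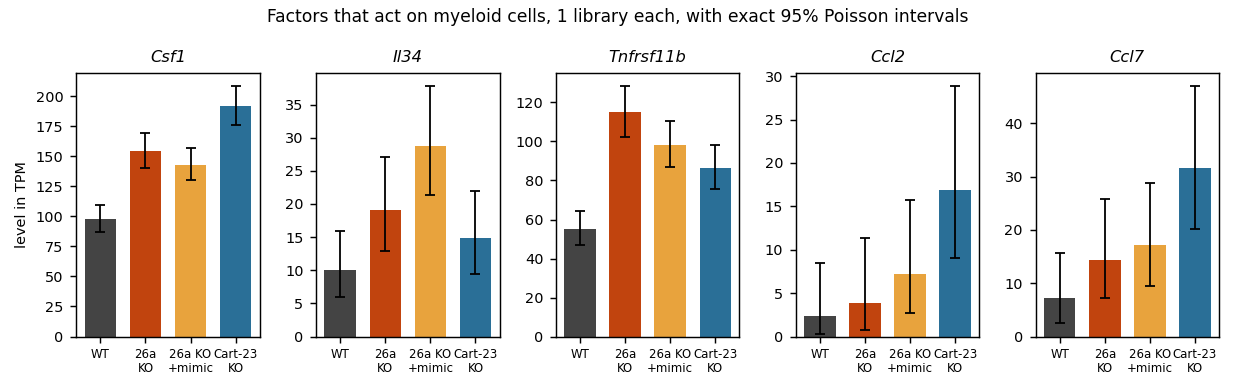
Level in TPM of Csf1, Il34, Tnfrsf11b, Ccl2 and Ccl7 in wild type (WT), miR-26a KO (26a KO), miR-26a KO with mimic and Cart-miR-23clus KO (Cart-23 KO), 1 bar per library with exact 95% Poisson intervals. Wild type is the lowest bar in each panel drawn, and Csf1, Ccl2 and Ccl7 are highest in Cart-miR-23clus KO. Cxcl12 and Tgfb1 are not drawn. Cxcl12 stood at 389.9 TPM in wild type, above miR-26a KO (239.6) and the mimic (278) and below Cart-miR-23clus KO (2831).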

How the data were processed

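The authors prepared QuantSeq 3′ mRNA libraries from total RNA, sequenced 75 bases from 1 end, without quality filtering, and mapped them to mm10 (GRCm38.p6). The aligner, the counter, its use of strand and the annotation are not given in the sources used here. The deposited estimated counts are whole reads per gene, not normalized, for 3 of the 4 libraries and 55450 genes. The deposited TPM values, for 4 libraries and 55141 genes, were made by the authors from reads divided by a gene length. That division does not suit 3′ reads when genes are compared with each other, and it cancels in ratios of 1 gene. Reads of the mimic library were recovered from steps of its TPM: all 14250 values tested came within 0.02 of a whole number, 588 genes gave no value, and 1449246 reads resulted in all. In the other libraries 76.45% to 83.24% of the reads aligned.

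Libraries were compared by the ratio of TPM, with exact Clopper-Pearson intervals (95%) on reads, and genes were counted past 2-fold on the log2(TPM + 0.5) scale if they had at least 20 reads over the 4 libraries, which 11049 genes did. Sums are given as CPM over the genes of the TPM file, and their ratios were scaled between libraries by the factor that the TPM values carry. No test was made, with 1 library per condition. A count of 0 was taken to allow 3 reads. Calculations used Python 3.11.15, pandas 2.3.3 and scipy 1.17.1, were tested on simulated data, and used edgeR 4.0.16 (TMM) and DESeq2 1.42.0 (size factors) under R 4.3.3 for other scalings only. All listed genes were named. From the other lists, the 2 genes with the most reads and those past 2-fold with an interval off 1 could be named. Chondrocyte, osteoblast and fibroblast markers are given as sums only, and Il34, Folr2, Nckap1l and genes at or near 0 reads were named after their values were seen. Genes were matched to GENCODE by identifier, and promoters and miRNAs to RefSeq by name. Windows for the other 8 macrophage and 3 osteoclast genes were not used here. The members and lists were chosen with earlier results of these data known.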

Additional observations from a re-analysis of the deposited data

How the results depend on the processing

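No paired analysis was possible because there was 1 library per condition. For each comparison and each of the macrophage and osteoclast groups, the counts past 2-fold, the median and the ratio of summed reads were recomputed under 9 alternatives, 1 of them chosen after seeing the data. Of 216 values, 199 stayed within counting error or, for counts, near the value reported, among them all under CPM, TMM, DESeq2 size factors and pseudocounts of 0.1 or 1 TPM. With at least 100 reads required, 13 macrophage genes were left, of which 8 were below 0.5-fold in miR-26a KO, 2 above 2-fold in Cart-miR-23clus KO and 4 above 2-fold with the mimic, against 1.28%, 2.59% and 0.410% of all genes, while only Ctsk remained among osteoclast genes, so 0 were above 2-fold in miR-26a KO or Cart-miR-23clus KO, and the latter median was 0.87. With no filter, 2 osteoclast genes were above 2-fold in miR-26a KO and 1 below 0.5-fold with the mimic, through the 2 reads of Ocstamp, against 11.7% and 10.8% of all genes. With 20 reads required outside each gene's highest library, the choice added later, Atp6v0d2 was lost, and 0 osteoclast genes were above 2-fold in miR-26a KO and 1 in Cart-miR-23clus KO, against 3.54% and 4.11% of all genes, with 4 of 22 macrophage genes above 2-fold in the latter. Without genes that other cartilage cells express, 3 of 19 macrophage genes were above 2-fold in Cart-miR-23clus KO, against 5.42% of all genes, and 1 of the 3 was Msr1. The ratios of macrophage sums became 0.333 in miR-26a KO, from 1.03, whose interval held 1, and 1.14 in Cart-miR-23clus KO and 1.86 with the mimic. In wild type the osteoclast sum then held 4 reads of Acp5 and 1 of Atp6v0d2. The ratios of osteoclast sums became 3.29, 9.03 and, with the mimic, 0.997 (0.461 to 2.16). That last interval held both 1 and the 1.45 over all 5 genes. These shifts follow from the genes left out. Depth limits the scarce genes: in miR-26a KO 4 macrophage genes had 0 reads and 6 had 1 to 3.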
